A study of Rattus norvegicus with 32 samples.

Results

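Cytochrome P450 enzymes of the Cyp3a and Cyp2a subfamilies hydroxylate steroids in rat liver, and their transcripts are described here by sex, age and genotype. The set held Cyp3a2, Cyp3a9, Cyp3a18, Cyp3a62, Cyp2a1 and Cyp2a2. It was chosen by symbol and by no rule on measured values, though earlier results of these data were known. All 6 were among the 17327 genes of the deposited count table, and all 6 passed the filter on low counts that left 11002 genes to test. Liver messenger RNA came from 32 Charles River Sprague Dawley rats kept without treatment. The rats were male or female and 30 or 60 days old. Their genotype was wild type (WT) or knockout (KO), with Serpina6 ablated by CRISPR/Cas9 editing. Serpina6 encodes corticosteroid-binding globulin (CBG), which the liver secretes. Each of the 8 groups held 4 rats, and the sources used here do not say how many founder lines the KO rats came from. Levels are reads per 1e+06 gene reads (CPM) after scaling between libraries, given as mean ± SD over 4 rats. Fold changes are on the log2 scale ± SE. The test was edgeR's quasi-likelihood test, and a gene passed at a Benjamini-Hochberg adjusted p below 0.05 over all 11002 genes.

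These enzymes take electrons from cytochrome P450 reductase (Por) and insert oxygen into testosterone, progesterone and other steroids, each favouring its own positions on the molecule. In the adult rat the liver reads sex from growth hormone, which is secreted in pulses in males and more evenly in females and acts through the transcription factor STAT5B. Cyp3a2 and Cyp2a2 are textbook genes of the adult male liver, Cyp2a1 and Cyp3a9 of the female liver, and the pattern sets in around puberty. Cyp3a genes are also known targets of the pregnane X receptor (Nr1i2), the constitutive androstane receptor (Nr1i3) and HNF4A, and glucocorticoids raise several of them. CBG binds glucocorticoids in blood.

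The promoter windows of the 4 Cyp3a genes are shown first because these genes lie in 1 family and yet moved in opposite directions with age and sex. Each window runs from 250 bases before to 50 bases after the start of transcription, 5′ to 3′ on the strand of the gene, from RefSeq on build GRCr8. Capitals mark AGTTCA on either strand (TGAACT on the opposite one) and CAAAGTCCA, and positions are counted back from the start site.
Cyp3a2 (chr12:14343808-14344107, minus strand): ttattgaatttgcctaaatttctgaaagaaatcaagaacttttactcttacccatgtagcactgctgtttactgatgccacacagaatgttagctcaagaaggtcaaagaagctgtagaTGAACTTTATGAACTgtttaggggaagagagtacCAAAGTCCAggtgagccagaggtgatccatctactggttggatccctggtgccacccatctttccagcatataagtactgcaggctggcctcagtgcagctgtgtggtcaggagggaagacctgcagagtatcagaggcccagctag
Cyp3a18 (chr12:13994062-13994361, plus strand): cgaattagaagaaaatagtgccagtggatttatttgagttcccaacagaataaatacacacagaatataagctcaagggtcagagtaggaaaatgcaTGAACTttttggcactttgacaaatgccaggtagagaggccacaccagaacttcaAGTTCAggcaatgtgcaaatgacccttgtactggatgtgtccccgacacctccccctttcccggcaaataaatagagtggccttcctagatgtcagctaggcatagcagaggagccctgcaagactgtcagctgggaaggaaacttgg
Cyp3a9 (chr12:21960111-21960410, minus strand): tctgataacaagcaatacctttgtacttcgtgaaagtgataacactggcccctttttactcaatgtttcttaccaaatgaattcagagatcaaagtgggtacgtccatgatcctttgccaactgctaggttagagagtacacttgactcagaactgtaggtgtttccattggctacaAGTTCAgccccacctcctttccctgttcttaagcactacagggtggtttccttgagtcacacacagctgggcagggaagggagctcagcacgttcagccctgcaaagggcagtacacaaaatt
Cyp3a62 (chr12:21511513-21511812, plus strand): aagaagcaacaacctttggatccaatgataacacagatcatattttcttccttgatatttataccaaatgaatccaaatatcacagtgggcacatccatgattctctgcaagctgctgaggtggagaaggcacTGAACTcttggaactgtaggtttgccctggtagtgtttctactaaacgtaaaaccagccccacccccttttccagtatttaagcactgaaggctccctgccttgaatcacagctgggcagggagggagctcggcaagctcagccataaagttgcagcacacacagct
Of the 5 members with a window, Cyp3a2 alone held a pair of AGTTCA copies in direct repeat with 3 bases between them, the arrangement known for binding the pregnane X receptor, at -131 to -117. That repeat was in 2 of 33469 windows of this length (0.00598%), the other being Cyp3a23-3a1, the neighbouring gene of Cyp3a2. Cyp3a2 also held CAAAGTCCA, an HNF4-type element, at -97 to -89, which 0.391% of windows held. A single AGTTCA was found at -73 to -68 in Cyp3a9 and at -117 to -112 in Cyp3a62, and 2 copies in Cyp3a18, at -153 to -148 and at -98 to -93, against a share of 14.5% of all windows with at least 1. The STAT5 element TTCNNNGAA was in none of the 5 member windows and in 8.87% of all windows. Of 5 further motifs, searched on both strands, AGGTCA (16.2% of windows) and TTGCNNAA (10.6%) were in Cyp3a2 and TGTTCT (20.7%) was in Cyp3a9. ATTGAT (8.06%) and TTANNTAA (5.84%) were in no member. Letters that match a motif show no binding, and a window without them says nothing about the factor. Among the Cyp3a members, identity over aligned bases ran from 62.5% (Cyp3a2 and Cyp3a62) to 76.1% (Cyp3a9 and Cyp3a62). Cyp3a23-3a1 matched Cyp3a2 at 89.3% but Cyp3a62 at 61.7%. The Cyp3a windows matched that of Cyp2a1 at 58.6% to 65.4%, so the ranges within and between the subfamilies overlapped. Windows of unrelated genes were not aligned. Cyp2a2 had no entry in that table.

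Gene reads per library numbered 12951969 to 21954929, with a minimum of 16806943 among 30-day and a maximum of 17133332 among 60-day libraries. Sample titles also differed in form between the ages, so age and any difference in handling cannot be told apart. Serpina6 stood at 25.5 to 131 CPM in the KO and 421 to 1358 CPM in the WT libraries, with no overlap. The 10 hepatocyte markers examined summed to 204026 to 302023 CPM per library. The 12 photoreceptor markers summed to 2004 CPM in replicate 1 of the 60-day KO females and to at most 7.86 CPM in every library of the other 7 groups, none of which held a read of Crx. The KO effects on Cyp3a9 and Cyp3a62 and the sex difference of Cyp3a9 in that group are therefore also given without that library. Other values of the group include it unless a library is said to be left out. Cyp3a2 and Cyp3a23/3a1, and Cyp2a1 and Cyp2a2, are close copies, so the split of reads between them rests on the authors' counting, which the sources used here do not describe. Cyp3a23/3a1 was at 0 to 1.62 CPM in every library but replicate 3 of the 30-day WT males (22.1 CPM). Whether reads under Cyp3a2 include some from that copy could not be checked here.

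In adult WT liver Cyp3a2, Cyp3a18, Cyp3a62 and Cyp2a2 were higher in males, and Cyp3a9 and Cyp2a1 were higher in females. All 6 members passed the test of 60-day WT males against WT females, where 26.4% of all genes tested did. In none of the 6 did the sexes overlap. The share of all genes without overlap between groups was not computed, here or below. Cyp3a2 stood at 1469, 1571, 1479.8 and 971 CPM in the males and at 0.945, 1.82, 1.24 and 0.922 CPM in the females. Every male library was far above every female library, and the females held only 12 to 27 Cyp3a2 reads each. The fold change was 10.10 ± 0.49 (adjusted p = 4.81e-14). In bulk liver, fewer cells that make a transcript and less of it per cell cannot be told apart, here and below.

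Cyp2a2 followed the same course, at 619, 762, 845 and 563 CPM in 60-day WT males and 0.945, 0.202, 0.326 and 0.384 CPM in WT females. The female values rest on 3 to 12 reads per library, so the fold change of 10.58 ± 0.60 (adjusted p = 1.03e-12) is set by very few reads on 1 side. Cyp3a18, a testosterone hydroxylase, rested on more reads in females, at 885, 957, 984 and 928 CPM in males and 37.2, 36.0, 21.9 and 51.5 CPM in females (4.68 ± 0.39, adjusted p = 9.75e-10). The 4 males lay close together and far above the females. Cyp3a62 stood at 16.7, 10.4, 10.0 and 22.4 CPM in males and 2.91, 2.02, 1.82 and 1.54 CPM in females (2.84 ± 0.28, adjusted p = 4.42e-09). Cyp3a62 has been described elsewhere as predominant in females, unlike in these counts. Which transcripts the authors' gene model of Cyp3a62 covers could not be checked here, so its values are those of the reads under that symbol. CPM are not divided by transcript length, so they rank libraries for a gene and not genes against each other.

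The female-biased members differed in size of effect. Cyp3a9 stood at 372, 535, 349.9 and 447 CPM in 60-day WT females and 52.0, 92.0, 74.0 and 91.0 CPM in WT males, a fold change of -2.46 ± 0.30 (adjusted p = 6.01e-07). Cyp2a1, which hydroxylates testosterone at a position of its own, stood at 637, 605, 719.7 and 827 CPM in the females and 199, 230, 250.1 and 161 CPM in the males (-1.73 ± 0.17, adjusted p = 5.13e-09). Both genes were thus clearly present in adult males too, unlike Cyp3a2 and Cyp2a2 in adult females.

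**Figure D1:**
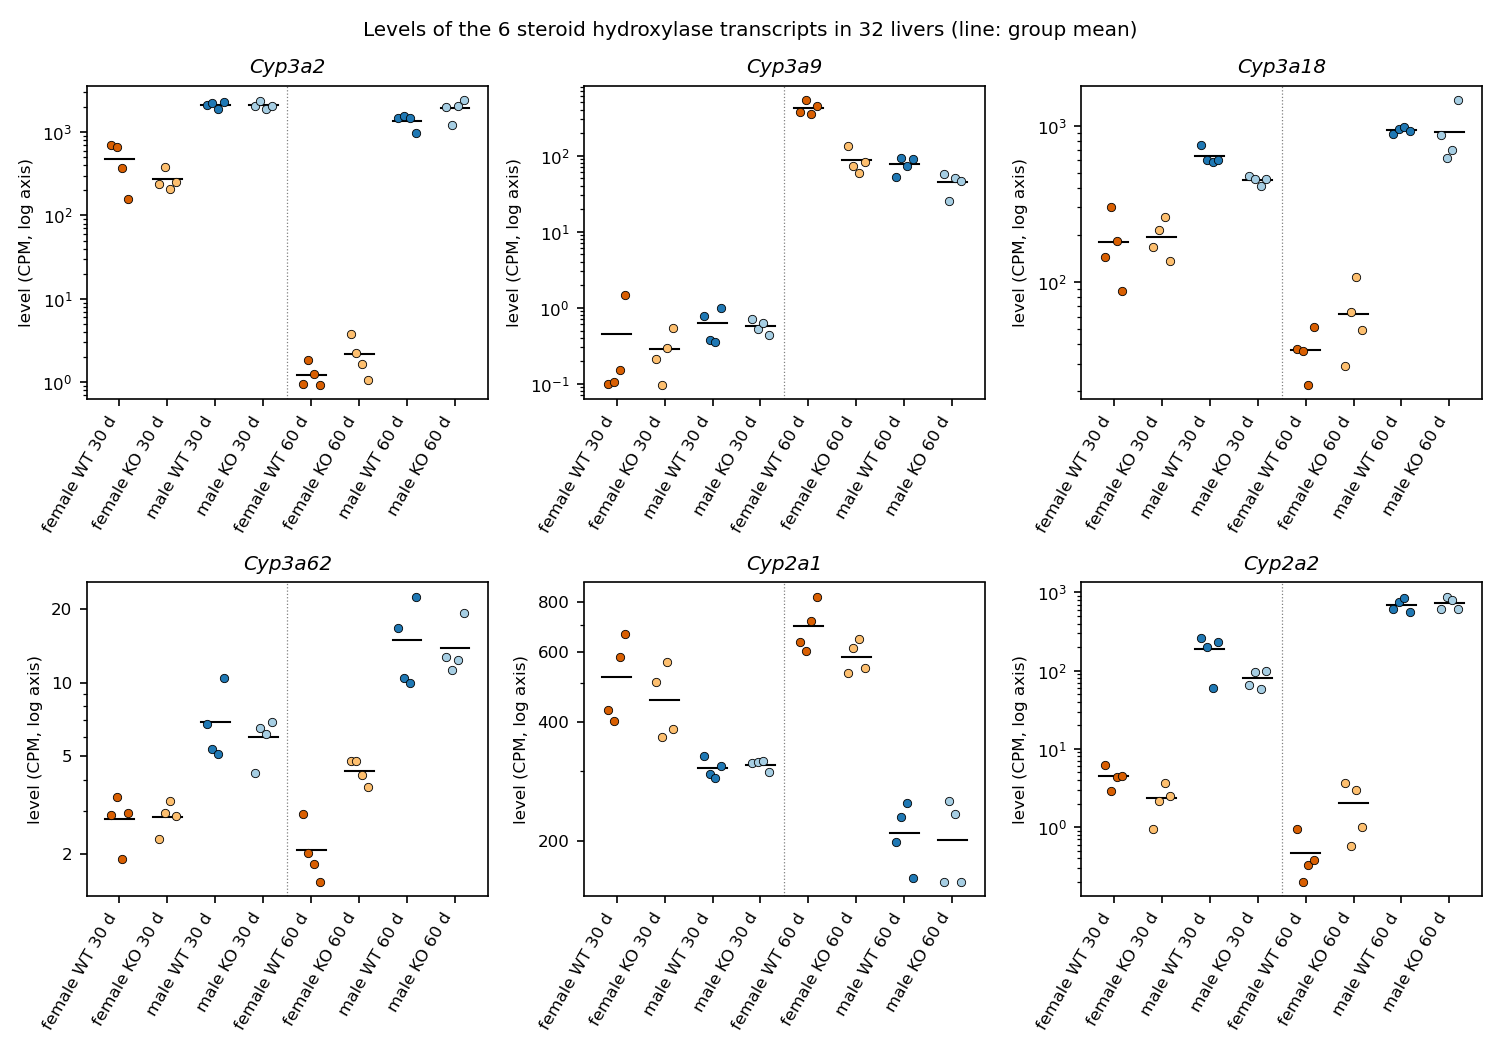
Level of each of the 6 transcripts (CPM, log axis) in every library, by sex, genotype and age; points are single rats and horizontal lines are means of 4. Cyp3a2 is near 1 CPM in 60-day females and at least 971 CPM in every male group, whereas Cyp3a9 is at most 1.47 CPM in the 30-day livers and highest in 60-day WT females.

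At 30 days the sexes already differed, but less. In WT, 5 members passed (2.07% of all genes did): Cyp3a2, Cyp3a18, Cyp3a62 and Cyp2a2 were higher and Cyp2a1 was lower in males. Cyp3a2 stood at 2135, 2236, 1903 and 2272 CPM in WT males and at 704, 664, 370.0 and 156 CPM in WT females (2.17 ± 0.32, adjusted p = 0.000161; 0.0584 in a fit to these 8 libraries). The female values spread over a wide range without reaching the males. Cyp2a2 had the widest sex difference of the 6 at this age, with 258, 201, 59.3 and 232 CPM in WT males and 6.15, 2.88, 4.4 and 4.51 CPM in WT females (5.38 ± 0.44, adjusted p = 1.52e-08). Cyp3a18 (1.83 ± 0.34), Cyp3a62 (1.31 ± 0.26) and Cyp2a1 (-0.77 ± 0.17) differed with no overlap of the sexes, although Cyp2a1 missed the threshold without replicate 4 of the WT females (adjusted p = 0.0589). Cyp3a9 was close to undetected in all 16 of the 30-day livers, at 0.0959 to 1.47 CPM, and its difference of 0.46 ± 0.71 had a 95% interval of -1.01 to 1.93. That value rests on replicate 4 of the WT females, without which it was 2.32 ± 0.84 (adjusted p = 0.239).

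In 30-day KO rats 3 members passed (2.24% of all genes did). Cyp3a2 (2.95 ± 0.33), Cyp3a62 (1.08 ± 0.26) and Cyp2a2 (5.09 ± 0.45) were higher in males. Cyp3a18 (1.20 ± 0.34, adjusted p = 0.0583) and Cyp2a1 (-0.54 ± 0.16, adjusted p = 0.0802) did not pass, although neither gene's sexes overlapped. Both passed by DESeq2 (0.0208 and 0.0339) and in a fit to these 8 libraries (0.0107 and 0.0453). All 4 KO females and replicate 4 of the KO males had the number 2 in the sample title, and the other KO males the number 1. The meaning of that number is not given, and among these rats it can hardly be told apart from sex. With it as a covariate the call of Cyp3a62 was lost (adjusted p = 0.0988). It was also lost without replicate 1 or 4 of the KO females or replicate 2 or 4 of the KO males (0.0551 to 0.0839), and leaving out 1 library moved the count of members between 2 and 4. Cyp2a1 passed without replicate 2 of the KO females (0.0477).

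The sex difference widened between 30 and 60 days for all 6 members in WT, where 9.00% of genes passed that test of the difference. The change of the male-against-female difference was 7.92 ± 0.54 for Cyp3a2 (adjusted p = 6.31e-10), 5.20 ± 0.74 for Cyp2a2, 2.85 ± 0.48 for Cyp3a18 and 1.53 ± 0.38 for Cyp3a62. Toward females it was -2.92 ± 0.78 for Cyp3a9 (adjusted p = 0.0172) and -0.96 ± 0.23 for Cyp2a1. Cyp3a9 missed the threshold without replicate 1 (adjusted p = 0.0513) or 4 (0.0795) of the 30-day WT males, and its value was -4.79 ± 0.82 without replicate 4 of the 30-day WT females. In KO rats 4 members passed (4.69% of genes did), Cyp3a2 at 6.85 ± 0.51, Cyp2a2 at 3.38 ± 0.64, Cyp3a18 at 2.66 ± 0.48 and Cyp2a1 at -0.99 ± 0.23. In the KO, Cyp3a9 (-1.97 ± 0.85, adjusted p = 0.215) and Cyp3a62 (0.58 ± 0.36, adjusted p = 0.44) did not pass. Whether the widening itself differed between WT and KO was not tested.

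**Figure D2:**
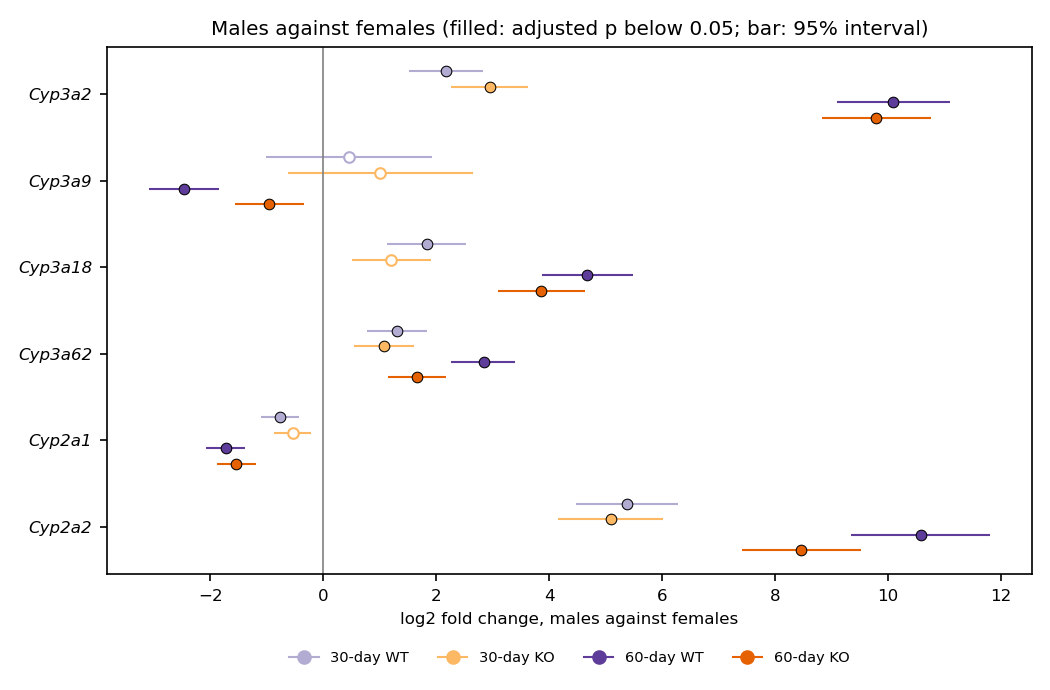
Log2 fold change of males against females for each transcript at 30 and 60 days in WT and KO rats; bars are 95% intervals and filled points passed at an adjusted p below 0.05. The differences for Cyp3a2 move from 2.17 and 2.95 at 30 days to 10.10 and 9.80 at 60 days, and those for Cyp3a9 lie on the female side only at 60 days.

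The members reached the adult pattern by different routes. Cyp3a2 in WT females fell by 8.56 ± 0.47 to 0.26% of its 30-day mean (adjusted p = 9.16e-13). In WT males it stood at 64.2% of its 30-day mean with no overlap of the ages, and the change of -0.64 ± 0.31 did not pass (adjusted p = 0.119) except when only those 8 libraries were fitted (0.00571). Cyp3a9 appeared in both sexes, rising by 9.88 ± 0.48 in WT females (adjusted p = 1.81e-13), 8.25 ± 0.49 in KO females, 6.95 ± 0.44 in WT males and 6.28 ± 0.44 in KO males. In WT females the rise was 11.74 ± 0.50 without replicate 4 of 30 days. No 30-day library held over 1.47 CPM of Cyp3a9, and no 60-day library under 25.6 CPM. Cyp2a2 moved apart from both sides in WT, rising by 1.90 ± 0.36 in males and falling by 3.30 ± 0.66 in females.

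Cyp3a18 fell by 2.29 ± 0.35 in WT females (adjusted p = 1.45e-05) and changed by 0.56 ± 0.33 in WT males (adjusted p = 0.21). The ages of these males did not overlap, at 586 to 755 and 885 to 984 CPM, and the change passed when only those 8 libraries were fitted (0.00113). Cyp3a62 went the other way round, rising by 1.10 ± 0.24 in WT males and changing by -0.43 ± 0.30 in WT females (adjusted p = 0.286). Cyp2a1 fell by 0.54 ± 0.17 in WT males (adjusted p = 0.0132; 0.0598 without replicate 4 of 60 days). In WT females it rose by 0.42 ± 0.16 (adjusted p = 0.0479), a call lost in 5 alternatives of scaling, filter, tool or libraries fitted (0.059 to 0.134). It was also lost without replicate 1 or 2 of the 30-day or replicate 3 or 4 of the 60-day WT females (0.0858 to 0.174). Of the 6 members, 5 passed with age in WT females (33.1% of all genes did), 4 in WT males (31.5%), 3 in KO females (22.7%) and 5 in KO males (28.4%). In KO females Cyp3a2 fell by 6.97 ± 0.43 and Cyp3a18 by 1.64 ± 0.34, while Cyp2a2 changed by -0.20 ± 0.53 (adjusted p = 0.837). Markers of other cells moved with age as well. Of 9 tested stellate and fibroblast markers 8 fell in WT females, where the list summed to 1118 to 1510.0 CPM at 30 and 312 to 469 CPM at 60 days. In WT males 6 of the 9 fell, from 926 to 1239.6 CPM to 360.2 to 592 CPM. Of 10 pericentral markers 6 rose and 2 fell in WT females and 5 fell in WT males. Of 10 Kupffer cell markers 5 rose and 1 fell in WT females and 1 fell in WT males. Of all genes 16.0% rose and 17.1% fell in WT females, and 15.7% rose and 15.8% fell in WT males. The part of these markers in the age changes of the members was not tested.

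KO and WT rats differed in 2 members, both in 60-day females, where 6.77% of all genes passed. Cyp3a9 fell and Cyp3a62 rose. In KO females Cyp3a9 stood at 134, 74.0, 59.8 and 82.0 CPM, below all 4 WT females named above, so that its mean of 87.4 ± 32.2 CPM was 20.5% of the WT mean. The fold change was -2.29 ± 0.30 (adjusted p = 3.95e-05, 95% interval -2.91 to -1.67). It passed in every alternative run, between -2.14 and -2.57, and was -2.57 ± 0.32 without the library that held photoreceptor transcripts. That library had the highest Cyp3a9 of the 4.

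The Cyp3a9 levels of KO females overlapped those of WT males of the same age, 52.0 to 92.0 CPM. KO males had 57.6, 25.6, 51.0 and 45.8 CPM, a fold change of -0.78 ± 0.30 against WT males that did not pass (adjusted p = 0.316), with overlap between the genotypes. The difference between the KO effects in the 2 sexes, 1.51 ± 0.41, did not pass over all genes either (adjusted p = 0.145), so an effect of CBG loss on Cyp3a9 that is particular to females was not shown. KO males remained below KO females by 0.96 ± 0.30 (adjusted p = 0.0229), a call that was lost without the library with photoreceptor transcripts (adjusted p = 0.137) and without replicate 2 of the KO males (adjusted p = 0.089). It was also lost with the clock score named below as a covariate and in 3 other fits or tools (adjusted p = 0.109 to 0.263).

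Cyp3a62 stood at 4.8, 4.77, 4.18 and 3.74 CPM in 60-day KO females, above the 1.54 to 2.91 CPM of WT females with no overlap (1.08 ± 0.29, adjusted p = 0.0238). At so low a level the call was fragile. Its adjusted p was 0.0625 when only 60-day libraries were fitted, 0.0667 when only the 8 compared were fitted and 0.067 without the library with photoreceptor transcripts. Without replicate 2, 3 or 4 of the WT females it lay between 0.064 and 0.0879. The fold change lay between 0.97 and 1.27 over all alternatives run. In males of that age it was -0.10 ± 0.23, and the difference between the sexes, -1.18 ± 0.37, did not pass (adjusted p = 0.207).

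The other 4 members did not pass in 60-day females, and 3 of them had positive fold changes. Cyp2a2 stood at 3.67, 0.58, 3.01 and 1.0 CPM in the KO, from 9 to 49 reads, and at 0.202 to 0.945 CPM in the WT. The groups overlapped, and the fold change of 2.17 ± 0.76 missed the threshold (adjusted p = 0.0862) but passed by DESeq2 (0.00216) and by limma on the deposited log2 values (0.0259), and by edgeR without replicate 2 of the KO females (0.0392). Cyp3a2 was at 3.75, 2.26, 1.66 and 1.07 CPM in the KO (0.79 ± 0.52, adjusted p = 0.412) and Cyp3a18 at 28.8, 64.6, 107 and 49.5 CPM (0.77 ± 0.34, adjusted p = 0.193). Both overlapped the WT females, and both stayed far under the males, whose lowest 60-day values were 971 CPM for Cyp3a2 and 617 CPM for Cyp3a18. Cyp2a1 was at 531, 613, 647 and 546 CPM (-0.25 ± 0.16, adjusted p = 0.401), overlapping the WT.

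**Figure D3:**
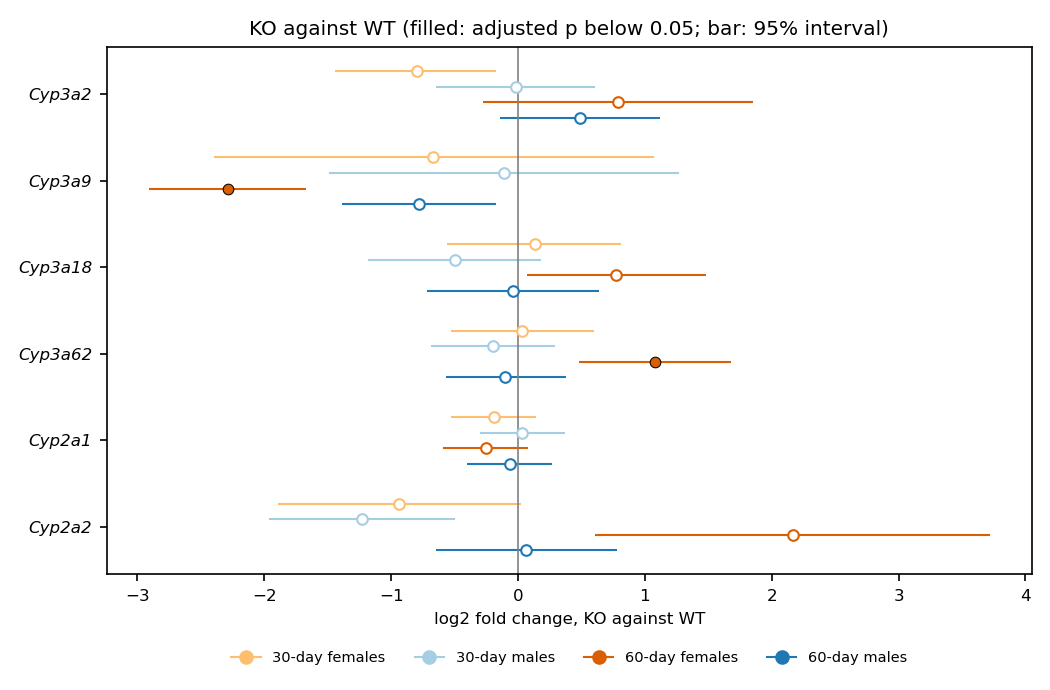
Log2 fold change of KO against WT for each transcript in the 4 combinations of sex and age; bars are 95% intervals and filled points passed at an adjusted p below 0.05. Only Cyp3a9 (-2.29) and Cyp3a62 (1.08) in 60-day females are filled.

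Other measures moved with genotype in the same livers. A clock score, the mean log2 level of Dbp, Tef, Per2, Per3, Nr1d1 and Nr1d2 minus that of Arntl, Npas2 and Clock, ran from -2.16 to -0.95 in 60-day WT females and from -0.93 to 0.74 in KO females. Dbp, a factor whose level swings with the time of day, rose by 2.27 ± 0.45. It stood at 33.9, 14.4, 5.23 and 5.08 CPM in the KO and at 2.0 to 4.8 CPM in the WT females. Replicate 1 of the KO females, the library with photoreceptor transcripts, had both the highest Dbp and the highest clock score. With that score as a covariate Cyp3a9 passed (-2.47, adjusted p = 0.0115), Cyp3a62 did not (adjusted p = 0.191), and Cyp3a18 did (1.61 ± 0.38, adjusted p = 0.037). The scores of the KO and WT females did not overlap, so score and genotype cannot be told apart in these rats. The 10 pericentral hepatocyte markers, genes expressed around the central vein, summed to 5456 to 7829.8 CPM in WT and 3888 to 6346 CPM in KO females. Of them 4 fell, where 3.29% of all genes did: Slc1a2 (-2.34 ± 0.33), Cyp1a2 (-1.09 ± 0.16), Gulo (-0.66 ± 0.15) and Glul (-0.65 ± 0.16). Their part in the result for Cyp3a9 was not tested. The same markers summed to 2747 to 2855 CPM in 60-day WT males and 2425 to 3329.5 CPM in 60-day KO males. In the 30-day groups, where Cyp3a9 was at most 1.47 CPM, they summed to 3238 to 5824 CPM. The 10 periportal markers summed to 5331 to 7764 CPM in WT and 4792 to 5538 CPM in KO females. Of them 2 fell, Pck1 (-1.50 ± 0.33) and Ass1 (-0.59 ± 0.14), and 1 rose, Aldh1b1 (1.00 ± 0.28).

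No member passed between KO and WT in 60-day males (0.209% of genes did), 30-day females (0.300%) or 30-day males (0.0545%) by edgeR, nor by DESeq2 or limma. At an unadjusted p below 0.05 the count was 1 in each of the 3 comparisons, Cyp3a9 in 60-day males, Cyp3a2 in 30-day females and Cyp2a2 in 30-day males. Of all 11002 genes, 1188, 1175 and 653 had such a p in these comparisons, in that order. Cyp2a2 in 30-day KO males stood at 66.2, 96.2, 58.6 and 99.1 CPM, 42.7% of the WT mean (-1.23 ± 0.35, adjusted p = 0.379). The WT males overlapped them only through replicate 3, which had 59.3 CPM against 201 to 258 CPM in the other 3. Cyp3a18 in the same KO males was at 474, 456, 409.5 and 456 CPM, below the 586 to 755 CPM of WT males without overlap (-0.50 ± 0.33, adjusted p = 0.909). Cyp3a2 did not differ beyond its spread in 30-day males (-0.02 ± 0.31, 95% interval -0.65 to 0.61).

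In 30-day females Cyp3a2 was at 237, 386, 208 and 255 CPM in the KO (-0.80 ± 0.31, adjusted p = 0.323). Among WT females replicate 4 stood apart, with the lowest Cyp3a2 (156 CPM) and Cyp3a18 (87.2 CPM), the highest Cyp2a1 (665 CPM) and 1.47 CPM of Cyp3a9 against at most 0.15 CPM in the other 3. Without it the fold change of Cyp3a2 was -1.09 and passed (adjusted p = 0.0392). Of the 30-day WT females it was also the only one with the number 2 in its title, as all 4 KO females had, and the meaning of that number is not given. Cyp2a2 was at 0.935, 2.16, 3.72 and 2.53 CPM in the KO females (-0.94 ± 0.46, adjusted p = 0.476).

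No member passed a test of the difference between KO effects, whether between the sexes at 30 days (0% of genes did) or 60 days (0.136%) or between the ages in females (2.96%) or males (0.00909%). At an unadjusted p below 0.05 these tests counted 0, 3, 3 and 1 members. Of all 11002 genes they counted 606, 1163, 1935 and 588. The nearest was Cyp2a2 between the ages in females, 3.11 ± 0.89 (adjusted p = 0.0539), which passed by DESeq2 (0.0012) and by limma (0.0295). It also passed without replicate 3 of the 30-day KO, replicate 1 of the 60-day WT or replicate 2 or 4 of the 60-day KO females (0.026 to 0.0456). Cyp3a2 passed the same test by DESeq2 (1.63 ± 0.51, adjusted p = 0.0312) and without replicate 4 of the 30-day WT females (0.0232), and without that library Cyp3a9 passed too (-3.49, 0.0489). All 6 members passed between the sexes in the 60-day KO, where 18.5% of genes passed: Cyp3a2 at 9.80 ± 0.47, Cyp2a2 at 8.47 ± 0.51, Cyp3a18 at 3.86 ± 0.37, Cyp3a62 at 1.66 ± 0.25, Cyp2a1 at -1.54 ± 0.17 and Cyp3a9 as given above. These comparisons share libraries with those of KO against WT and are not independent of them.

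Ratios within a library do not depend on scaling between libraries. For every 100 reads on Cyp2a1 there were 312 to 348 on Cyp2a2 in 60-day WT males and 0.0334 to 0.148 in 60-day WT females. KO males of that age held 338 to 391, and KO females 0.0946 to 0.691, overlapping the WT. At 30 days the ratio was 20.5 to 78.9 in WT and 18.4 to 33.2 in KO males, so the reads on Cyp2a2 had not yet passed those on Cyp2a1 in any male.

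Cyp3a9 took 89.2% to 93.3% of the reads on the 4 Cyp3a genes in 60-day WT females and 34.7% to 78.2% in KO females, without overlap. In males of that age it took 2.15% to 4.52% in WT and 1.16% to 1.96% in KO. In all 30-day livers it took at most 0.594%. Reads on the 4 Cyp3a genes together made up 0.0361% to 0.0579% of all gene reads in 60-day WT females and 0.0127% to 0.0168% in KO females, whereas 60-day males held 0.176% to 0.371%. The shares count reads and not transcripts, and they carry counting error besides the spread shown.

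**Figure D4:**
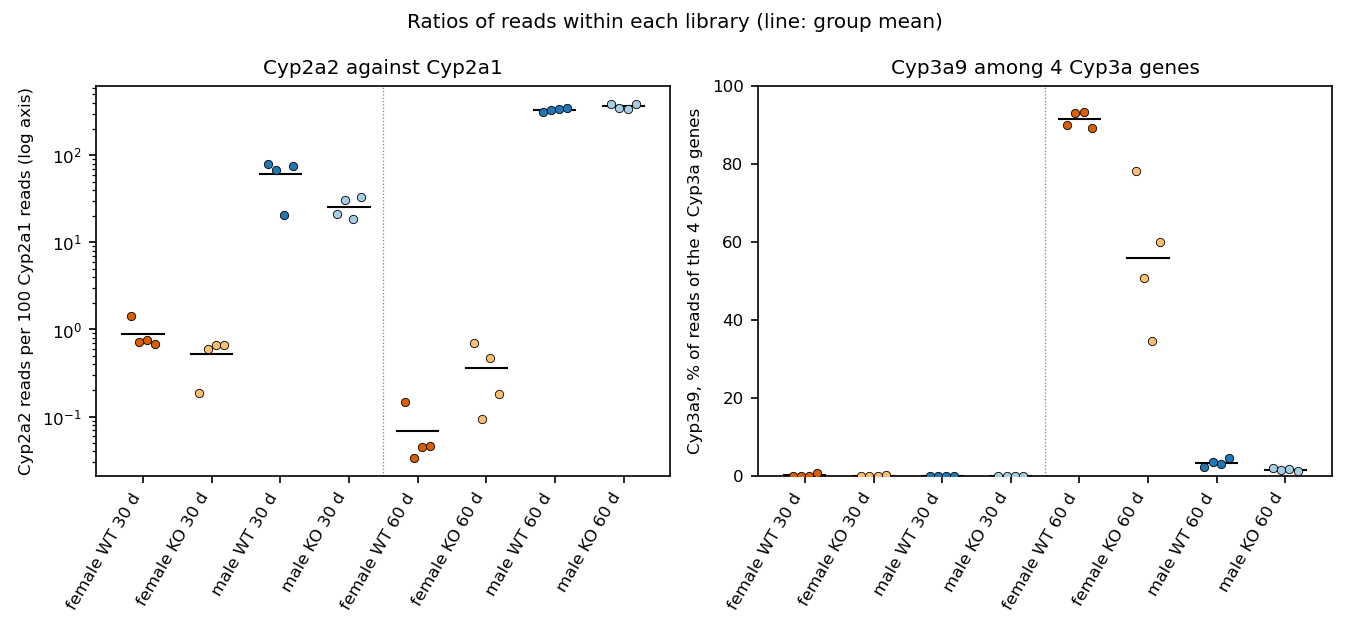
Left, Cyp2a2 reads per 100 Cyp2a1 reads in each library (log axis); right, Cyp3a9 as a percentage of the reads on the 4 Cyp3a genes (linear axis); points are single rats and lines are means of 4. On the right, 60-day WT females lie between 89.2% and 93.3% and KO females between 34.7% and 78.2%.

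Over the 8 groups the mean level of Cyp3a2 ran from 2137 ± 166 CPM in 30-day WT males to 1.23 ± 0.416 CPM in 60-day WT females. The 4 male groups overlapped in turn, down to 60-day WT males at 1373 ± 272 CPM, as did the 2 groups of 30-day females and the 2 of 60-day females. For Cyp3a9 the order was 60-day WT females (426 ± 83.8 CPM), then KO females, WT males (77.2 ± 18.7 CPM) and KO males (45.0 ± 13.8 CPM) of that age, and then the 30-day groups. Of these only the first stood clear of its neighbour among the 60-day groups, and the 4 groups at 30 days overlapped. Cyp3a18 ran from 939 ± 42.3 CPM in 60-day WT males to 36.7 ± 12.1 CPM in 60-day WT females, and Cyp3a62 from 14.9 ± 5.86 to 2.07 ± 0.594 CPM in the same groups. Cyp2a1 had the narrowest range, from 697 ± 99 CPM in 60-day WT females to 201 ± 49.8 CPM in 60-day KO males, with the 4 female groups overlapping in turn. Cyp2a2 ran from 727 ± 131 CPM in 60-day KO males to 0.464 ± 0.329 CPM in 60-day WT females. In both the Cyp3a18 and the Cyp2a2 order, WT and KO males of 60 days did not differ beyond their spread.

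The rest of the P450 system changed in part. Of 25 other P450 genes of steroid and drug oxidation, 0 rose and 5 fell in 60-day KO females, where 3.48% of all genes rose and 3.29% fell. Their median log2 fold change was -0.27, against 0.01 over all genes. Cyp1a2 fell by 1.09 ± 0.16, Cyp2d3 by 0.75 ± 0.19, Cyp2b3 by 0.50 ± 0.12 and Cyp2d1 by 0.47 ± 0.13. Of 16 genes that supply electrons or haem to P450s 0 passed in that comparison, and Por, the reductase, stood at 137 ± 38.1 CPM in KO and 126 ± 39.3 CPM in WT (0.12 ± 0.20). Of 27 tested steroid reductases, dehydrogenases and transferases, 1 rose and 4 fell. The one that rose was Sult2a2, a hydroxysteroid sulfotransferase, at 195 ± 154 CPM in KO against 3.18 ± 2.36 CPM in WT (5.96 ± 1.20), and Hsd17b12, a hydroxysteroid dehydrogenase, fell by 0.65 ± 0.08.

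Among 25 receptors and liver factors of P450 genes, 1 fell in 60-day KO females and 0 rose, where 3.29% of all genes fell and 3.48% rose. It was Nr1i3, the constitutive androstane receptor, at 1.65, 0.58, 1.35 and 2.67 CPM in KO and 2.99, 5.78, 5.34 and 16.4 CPM in WT females (-2.28 ± 0.52, adjusted p = 0.00805). The groups did not overlap, and the highest WT value set much of the difference in means. Nr1i2 (-0.14 ± 0.08) and Hnf4a (-0.20 ± 0.14) did not pass. Of 20 tested genes known to be inducible through these receptors 3 rose and 2 fell, among them Ephx1, a microsomal epoxide hydrolase (1.27 ± 0.26), and Sult1a1, a phenol sulfotransferase (-1.75 ± 0.19).

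Of 15 genes on the growth hormone route, 0 passed in 60-day KO females, where 6.77% of all genes did. For a list of 15 genes a count of 0 lies near that share. Stat5b changed by 0.12 ± 0.09 and did not pass. Cux2, a repressor of male genes in female liver, stood at 142 ± 20.6 CPM in KO and 141 ± 21.2 CPM in WT (0.01 ± 0.44). Bcl6, which is male-biased, was at 2.98 ± 1.38 and 2.51 ± 0.885 CPM (0.23 ± 0.85). In WT at 60 days the same list held 2 genes higher and 7 lower in males, with Cux2 at -6.51 ± 0.63 and Trim24 at -5.25 ± 0.45. In that comparison 10 of the 25 other P450 genes were higher and 7 lower in males (13.7% and 12.7% of all genes), among them Cyp2c12, the female-specific hydroxylase (-6.32 ± 0.32), and Cyp2c13 (10.15 ± 0.62) and Cyp2c11 (12.11 ± 0.79), the male-specific ones.

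Across the 32 libraries the levels of Cyp3a2, Cyp3a18, Cyp3a62 and Cyp2a2 followed each other. Pearson r on log2 CPM ran from 0.60 (Cyp3a2 and Cyp3a62) to 0.91 (Cyp3a18 with Cyp3a2 and with Cyp2a2). Each of them ran against Cyp2a1, with r from -0.79 (Cyp3a2) to -0.91 (Cyp2a2). Cyp3a9 followed none of the other members, with r from -0.59 to 0.18. The genes most like Cyp3a2 were Slc22a8, an organic anion transporter (0.98), Fam89a (0.97) and Hsd11b1, which regenerates active glucocorticoid (0.95). Those most like Cyp3a9 were Kcnn2, a potassium channel (0.96), Crp, C-reactive protein (0.95), and Sptssa, a subunit of serine palmitoyltransferase (0.95). For Cyp3a18 they were Slc22a25 (0.96), Hao1 (0.96) and Slc10a2 (0.95), for Cyp3a62 Apon, Dhrs7 and Zdhhc23 (0.93 each), for Cyp2a1 Car12, Pla2g16 and Akr1b7 (0.95 each) and for Cyp2a2 Meiob, Hao2 and Ust5r (0.95 each). These values describe 8 groups that differ in sex and age, which all the genes share, and say nothing of common control.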

How the data were processed

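Liver RNA was isolated with Trizol and sequenced from strand-marking libraries of polyadenylated RNA, per the labels. The submitters' processing notes name STAR, Cufflinks, limma and the assembly Rnor_5.0. Their roles, their versions, the annotation and whether counting used strand are not given in these sources. The authors deposited raw counts of reads per gene for 17327 genes. Reads on no feature (18% to 21.2%) and ambiguous reads (0.262% to 0.648%) stayed out of library sizes and tests. A deposited table of log2 CPM for 11344 genes matched a recalculation from those counts to 5.00e-09.

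Counts were fitted with edgeR 4.0.16 in R 4.3.3, using filterByExpr with a minimum count of 10, TMM scaling and a robust quasi-likelihood model with 1 mean for each of the 8 groups over 32 libraries (24 residual degrees of freedom). Adjustment ran over 11002 genes, and intervals are 95%. Replicates are numbered in the order of the series. Every pair within a group differed beyond sampling noise (11.1 to 58.6 as chi-square over its degrees of freedom). Separate rats follow only from the stated 4 per group, so p-values measure the spread between these samples, which may be technical. DESeq2 1.42.0, limma 3.58.1, other scalings, no filter, smaller sets of libraries, covariates and leaving out each library were alternatives. Promoter windows were aligned with Biopython 1.88.

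The members, lists and tests were chosen with earlier results of these data known. Most genes named besides the members came from a rule: up to 4 passing genes with the smallest adjusted p of each list in each KO comparison and in 60-day WT males against females, 9 regulators and controls whatever their values, and the 3 genes most correlated with each member. Cyp3a23/3a1, Crx and the genes of the clock score were named outside it, Cyp3a23/3a1 and Crx after their values were seen.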

Additional observations from a re-analysis of the deposited data

Results flagged for a closer look

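Among 48 combinations of member and group, 3 held a library far from the other 3 by Dixon's criterion (95%), which chance meets in about 1 of 20 groups. Cyp3a2 was at 971 CPM in replicate 4 of the 60-day WT males against 1469 to 1571 CPM in the others. Cyp3a9 was at 1.47 CPM, from 28 reads, in replicate 4 of the 30-day WT females against 0.0976 to 0.15 CPM. Cyp3a18 was at 755 CPM in replicate 1 of the 30-day WT males against 586 to 601 CPM.

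Cyp3a23/3a1, the close copy of Cyp3a2, was at 22.1 CPM (503 reads) in replicate 3 of the 30-day WT males against 0.21 to 0.313 CPM in the others. That library also had the lowest Cyp2a2 of its group. Cyp3a23/3a1 further stood apart at 1.62 CPM in replicate 2 of the 60-day WT males, 0.0672 CPM in replicate 2 of the 60-day WT females and 0 CPM in replicate 4 of the 30-day KO females, all on few reads; a count of 0 allows up to 3 reads.

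The sex difference (males against females, log2) changed between 30 and 60 days by a test of that change. In WT it moved by 7.92 for Cyp3a2, 5.20 for Cyp2a2, 2.85 for Cyp3a18, 1.53 for Cyp3a62, -0.96 for Cyp2a1 and -2.92 for Cyp3a9. In KO it moved by 6.85 for Cyp3a2, 3.38 for Cyp2a2, 2.66 for Cyp3a18 and -0.99 for Cyp2a1.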

How the results depend on the processing

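No paired analysis was possible because animals are not linked by the labels. Of 2068 values of single members under alternatives, 1956 kept their direction and side of the threshold, 38 lost and 25 gained a call, and 49 changed sign, all among members that had not passed. The number of members past the threshold in 60-day KO against WT females was 1 in place of 2 when only 60-day libraries, or only the 2 groups, were fitted, and 3 by DESeq2 and by limma. In 30-day KO males against females it was 5 in place of 3 by DESeq2 and with only the 2 groups. For age by genotype in females it was 2 by DESeq2 and 1 by limma in place of 0. Leaving out 1 library gave 0 to 1 in 30-day KO against WT females, 1 to 3 in 60-day females, 2 to 4 in 30-day KO males against females and 0 to 2 for age by genotype in females.

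Sign changed for these members, none of which had passed. In KO against WT, Cyp3a9 was at 0.10 in 30-day females and 0.06 in 30-day males by limma, and at 0.10 in 30-day males with the title number as a covariate. Cyp3a2 in 30-day males was at 0.04 without scaling and by limma, and at 0.06 with the clock score. With that score Cyp2a1 in 30-day males was at -0.01, Cyp3a18 in 60-day males at 0.10 and Cyp2a2 in 60-day males at -0.01. Leaving out 1 library at a time gave, in 30-day females, -1.14 to 1.20 for Cyp3a9, -0.10 to 0.50 for Cyp3a18 and -0.11 to 0.14 for Cyp3a62. In 30-day males it gave -0.08 to 0.02 for Cyp3a2, and -0.33 to 0.20 for Cyp3a9 and -0.33 to 0.06 for Cyp3a62. In 60-day males it gave -0.36 to 0.11 for Cyp3a18, -0.29 to 0.16 for Cyp3a62, -0.19 to 0.03 for Cyp2a1 and -0.04 to 0.17 for Cyp2a2. With age in the KO it gave -0.59 to 0.12 for Cyp2a2 in females and -0.25 to 0.04 for Cyp3a2 in males. For sex by genotype at 60 days Cyp3a2 ran from -0.55 to 0.07, and for age by genotype in females Cyp2a1 ran from -0.20 to 0.06. For sex by genotype at 30 days Cyp3a9 was at 0.56 and ran from -1.31, without replicate 4 of the WT females, to 1.03, with -0.05 by limma. There Cyp3a62 ran from -0.36 to 0.04 and Cyp2a2 from -0.59 to 0.03, with Cyp2a2 at 0.19 under the title number as a covariate and at 0.00 by limma. For age by genotype in males Cyp3a62 ran from -0.16 to 0.36. The cause of these shifts was not tested.

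Without scaling, the median of all genes in 60 against 30 days lay between -0.21 and -0.11, and Cyp3a18 in KO males then missed the threshold (adjusted p = 0.0528). It also missed it with the clock score (0.146), by limma (0.0848) and without replicate 3 of the 30-day (0.058) or replicate 4 of the 60-day KO males (0.131). Cyp2a1 missed it for age by sex in the KO with the clock score (0.0772). Depth limits Cyp3a9 at 30 days and Cyp3a2 and Cyp2a2 in 60-day females, which rest on few reads.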
